A study of Mus musculus with 5 samples.

Results

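The miRNAs of the imprinted Dlk1-Dio3 domain were examined in bone marrow-derived dendritic cells (BMDCs). Members were chosen by miRNA number from the names of the array design, which gave 95 mature miRNAs, or arms, under 48 hairpin names, out of 1122 mouse miRNAs on the array. The rule itself uses no measured value. Bone marrow of 6-week-old C3H/HeJ mice was cultured for 7 days with rmGM-CSF and rmIL-4, and CD11c+ cells were sorted with magnetic beads on an auto-MACS system. C3H/HeJ is an inbred strain with a defective Tlr4, and all arrays came from this strain. The sorted cells then received flagellin, the bacterial protein sensed by TLR5, at 100 ng/ml for 24 h (3 arrays), or medium alone for the same time (2 arrays). The labels do not say whether replicates came from separate mice or cultures, so the p-values below measure the spread between these arrays, which may be technical. Whether a lower signal in such RNA reflects fewer cells that carry a miRNA or less of it per cell cannot be told apart.

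Genes of the Dlk1-Dio3 domain are expressed from only the maternal or only the paternal chromosome. The paternal copy gives the protein-coding genes Dlk1, Rtl1 and Dio3, and the maternal copy gives long noncoding RNAs, among them Meg3, Rtl1 antisense, Rian and Mirg, together with many miRNAs processed from the same stretch. The domain is known for its expression in embryo, placenta and brain. The miRNAs of the Rtl1 antisense transcript pair perfectly with Rtl1 mRNA and direct its cleavage, and miR-134, of the Mirg stretch, is known for acting on Limk1 in neurons. The probes of all 95 members mapped to mouse chromosome 12 in the mm9 build that the file headers name, between 110801930 and 110981994, a span of 180 kb.

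The sequences that the results turn on are those of the 2 detected members, of the opposite arm of the detected hairpin and of the undetected members closest to the detection limit. Mature sequences are from RefSeq (GRCm38.p6), written 5′ to 3′ with bases 2 to 8, the seed, in capitals. RefSeq held a sequence under the same name for 88 of the 95 members, and miR-376c-3p is represented below by an array probe.
miR-494-3p: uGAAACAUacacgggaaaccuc
miR-494-5p: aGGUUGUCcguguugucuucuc
miR-539-5p: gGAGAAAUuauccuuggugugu
miR-668-3p: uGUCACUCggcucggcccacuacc
miR-370-3p: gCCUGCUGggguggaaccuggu

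Array probes are DNA and complementary to the 3′ end of the miRNA. Both miR-494-3p probes, the longest miR-539-5p probe and the 19-nt probe of miR-376c-3p are shown because their signals are described in detail.
miR-494-3p, 14-nt probe: gaggtttcccgtgt
miR-494-3p, 15-nt probe: gaggtttcccgtgta
miR-539-5p, 20-nt probe: acacaccaaggataatttct
miR-376c-3p, 19-nt probe: acgtgaaatttcctctatg

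In GRCm38.p6, mature miR-494-3p lies on the plus strand of chromosome 12 at 109715367 to 109715388 and miR-494-5p at 109715334 to 109715355, while miR-539-5p lies at 109728136 to 109728157. The 14-nt probe of miR-494-3p pairs with its bases 9 to 22 and the 15-nt probe with bases 8 to 22, so the shorter probe does not read the seed. Against 1678 other mature mouse miRNAs of RefSeq, the longest stretch shared with the target of the 15-nt probe was 9 nt, in miR-6959-5p, a name the array does not carry. The search covered mature miRNAs only, so binding of other small RNAs to the probe was not tested. Seeds were mostly private to each member. The 88 members with a sequence had 82 different seeds, and 6 seeds were shared by a pair of members each, such as GGUUGUC of miR-494-5p and miR-410-5p. The seed of miR-494-3p was shared with no other member. For 2 members, a miRNA outside the domain that was detected on all 5 arrays had the same seed, namely miR-362-3p for miR-329-3p and miR-672-5p for miR-377-5p.

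The arrays were 1-colour Agilent miRNA arrays. Each miRNA has several probes printed in many spots, and Feature Extraction gives every probe a signal and an error. A miRNA is called detected on an array where at least 1 of its probes exceeds 3 times its error. The total gene signal, an intensity, is the sum over the probes that pass, and an undetected miRNA receives 0.1. Applied to the deposited probe signals, this rule returned the total gene signal in 5610 of 5610 cases of a mouse miRNA on an array, to within a fraction of 0.001. The members were represented by 250 probes. For undetected members, the limit of 3 median errors lay between 2.19 and 2.68 for probes of 10 spots and between 4.39 and 5.36 for probes of 20 spots, depending on the array.

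Only 2 of the 95 members were detected on any array. miR-494-3p was detected on all 5 arrays and miR-539-5p on 3, and the remaining 93 members were detected on none, with or without flagellin. In contrast, 327 of the 1027 other mouse miRNAs (31.8%) were detected on at least 1 array, against 2.11% of the members, and 276 (26.9%) were detected on all 5, against 1.05%. Flagellin replicates 1, 2 and 3 had 1, 1 and 2 detected members and each medium replicate had 2, while between 292 and 317 mouse miRNAs in all were detected per array. These shares describe the arrays and were not tested, since miRNAs of the same transcripts are not independent. No array of a tissue known to express the domain was analysed here, so whether every member probe can detect its target was not tested.

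**Figure D1:**
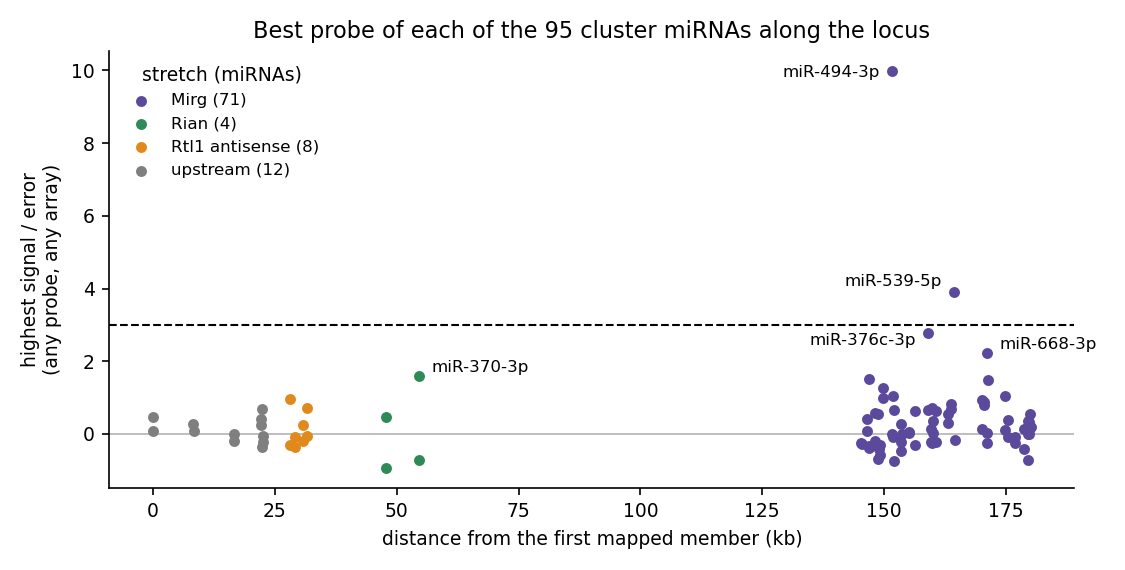
The highest ratio of probe signal to its error, over all probes and all 5 arrays, is plotted for each of the 95 members against the distance in kb of its mapped position from the first member. Colours mark the stretch of the domain, and the dashed line marks the detection limit of 3 errors, which only miR-494-3p and miR-539-5p exceed.

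The undetected members covered all stretches of the domain. None of the 12 members upstream of Rtl1, which include both arms of miR-770 within Meg3, was detected, and the highest ratio of signal to error among their probes was 0.70, for miR-540-5p. None of the 8 members of the Rtl1 antisense stretch was detected either. There the highest ratio was 0.96, for miR-433-5p, and both arms of miR-127, the best known of this group, stayed below 0. Among the 4 members of the Rian stretch the highest ratio was 1.59, for miR-370-3p. The Mirg stretch, from miR-379 to miR-410, held 71 members and both detected miRNAs, and its 69 undetected members had ratios of up to 2.78. The neuronal miR-134-5p reached 0.88 and both arms of miR-379, the first hairpin of this stretch, did not exceed 0 on any array.

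Most undetected members lay far from the limit and not just below it. Of the 93, the best probe on the best array exceeded 1 error for 8 members, 1.5 errors for 4, 2 errors for 2 and 2.5 errors for 1. For 39 members, no probe was above 0 on any array. The median of the highest ratio over the 93 was 0.09. The 244 probes of the undetected members had a median signal between −0.62 and −0.30 on the 5 arrays, and the 1802 probes of other undetected mouse miRNAs had one between −0.51 and −0.20. Signals can fall below 0 because background had been subtracted. On every array the median of the member probes was the lower of the pair, by less than 1 error of a probe. Member probes had a median length of 16 nt and a median GC content of 52.9%, against 16 nt and 50% for the other mouse probes.

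**Figure D2:**
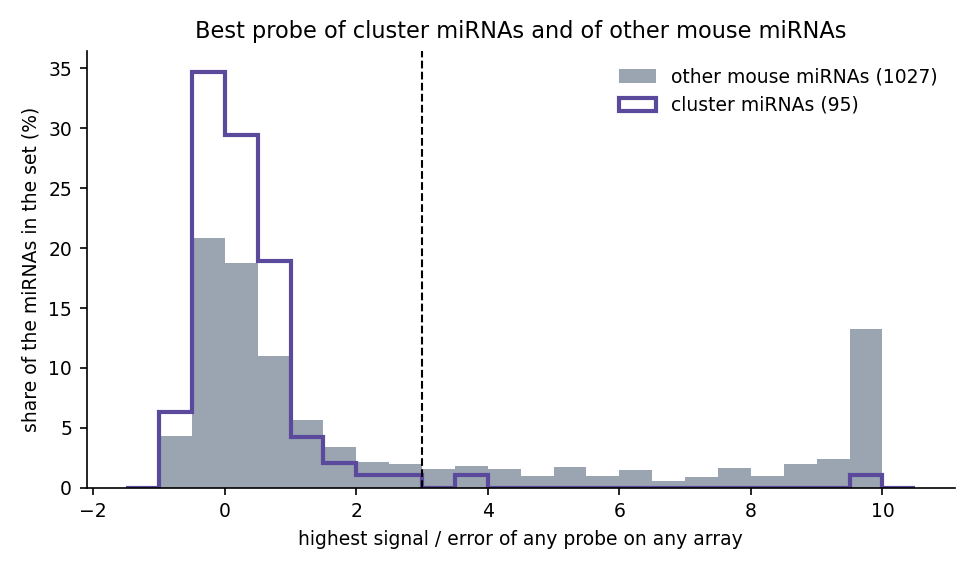
The share of miRNAs, in percent, is plotted against the highest ratio of probe signal to error on any array for the 95 cluster miRNAs (line) and the 1027 other mouse miRNAs (filled). The ratio does not exceed 10 because the error of a bright probe grows in proportion to its signal, and the cluster miRNAs past the limit of 3 are miR-494-3p at 9.99 and miR-539-5p at 3.898. Of the other 93, 85 stay at or below 1 and miR-376c-3p and miR-668-3p reach 2.78 and 2.22.

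miR-494-3p was the only member measured well above the limit. Its total gene signal reached 896, 845 and 833 in the 3 flagellin replicates, 2260 in medium replicate 1 and 934 in medium replicate 2. Thus 4 of the 5 arrays lay within a narrow range and medium replicate 1 stood apart at 2.42 times the value of medium replicate 2. Both medium values lay above all flagellin values as deposited. After division by the 75th percentile of each array over the 277 always detected mouse miRNAs, the flagellin replicates read 1.67, 1.53 and 1.98 on the log2 scale and the medium replicates 3.002 and 1.92, and the groups overlapped, because flagellin replicate 3 exceeded medium replicate 2. Groups without overlap, with every flagellin value lower, occurred for 27 of the 307 tested miRNAs (8.79%) and for neither tested member.

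On this log2 scale miR-494-3p averaged 1.73 ± 0.23 (SD, n = 3) in flagellin-treated cells and 2.46 ± 0.76 (SD, n = 2) in medium alone. The log2 difference, flagellin minus medium, was −0.73 with a standard error of 0.36, and limma's test gave an unadjusted p of 0.102 and an adjusted p of 0.859, neither under 0.05. It rested on medium replicate 1: without that array it was −0.20, and without medium replicate 2 it was −1.30, each with 1 medium array left. The unadjusted p depended on the set of miRNAs fitted. With only those detected on all 5 arrays, limma's unadjusted p was 0.0426 and the adjusted p 0.771. An exact two-sided permutation test on the deposited signals gave p = 0.1, the smallest that 3 arrays against 2 allow, and p = 0.2 on the scaled signals.

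The high value of medium replicate 1 was present in both probes and in all of their spots. Each probe was printed in 20 spots spread over the array. For the 14-nt probe, spot signals in medium replicate 1 ran from 2960 to 3808 with a median of 3604, and the highest spot on the other 4 arrays was 1636. For the 15-nt probe, spots in medium replicate 1 ran from 1555 to 2398 with a median of 2258, and the highest spot elsewhere was 970. Even the dimmest spot of medium replicate 1 was thus brighter than every spot of the same probe on the other arrays. Spots of an array share the same labelled RNA and are not replicates of the treatment. The signal of the 15-nt probe was 0.557 to 0.572 times that of the 14-nt probe on 4 arrays and 0.620 times on medium replicate 1.

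**Figure D3:**
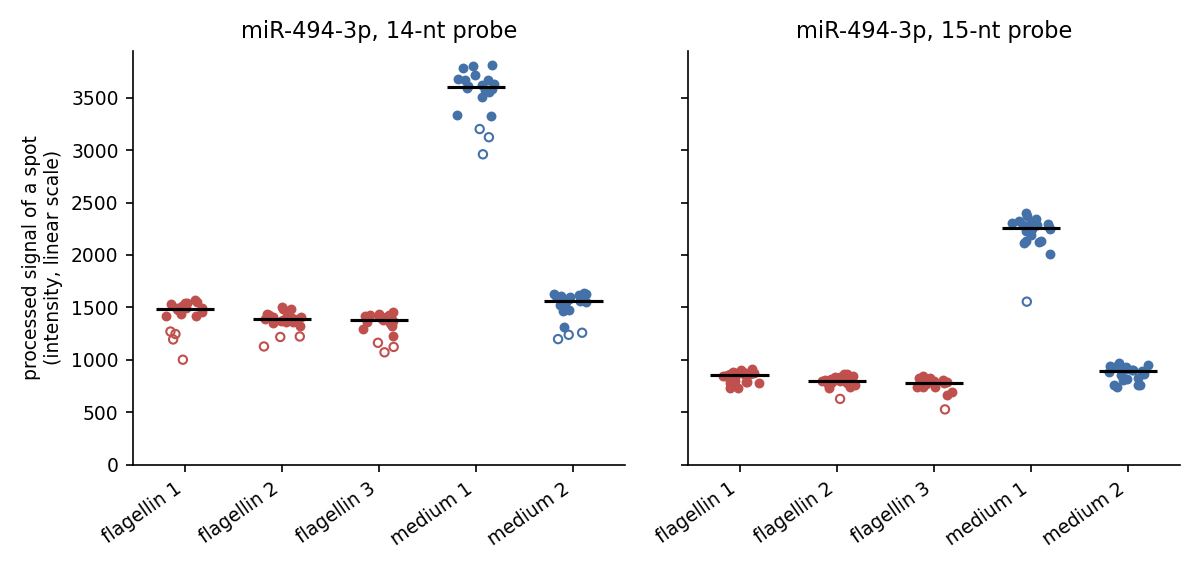
Processed signals (intensity, linear scale from 0) of the 20 spots of each miR-494-3p probe are plotted by array, with flagellin in red, medium in blue, outlier spots marked by the software as open circles and a black line at the median. Medium replicate 1 has medians of 3604 and 2258, and none of its spots overlaps with those of the other 4 arrays.

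The other arm of the same hairpin did not share the signal. miR-494-5p was undetected on all 5 arrays, and both of its probes were below 0 on each of them, including medium replicate 1, where they read −0.61 and −0.53. Among the 277 mouse miRNAs detected on every array, 28 (10.1%) had their highest scaled value in medium replicate 1. miR-494-3p exceeded the median of its other 4 arrays there by 1.20 on the log2 scale, the largest such excess of the 277. The next was miR-467f with 1.03, and the 95th percentile of the 277 was 0.44. This ranking was made after the values of miR-494-3p had been seen and is a description.

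**Figure D4:**
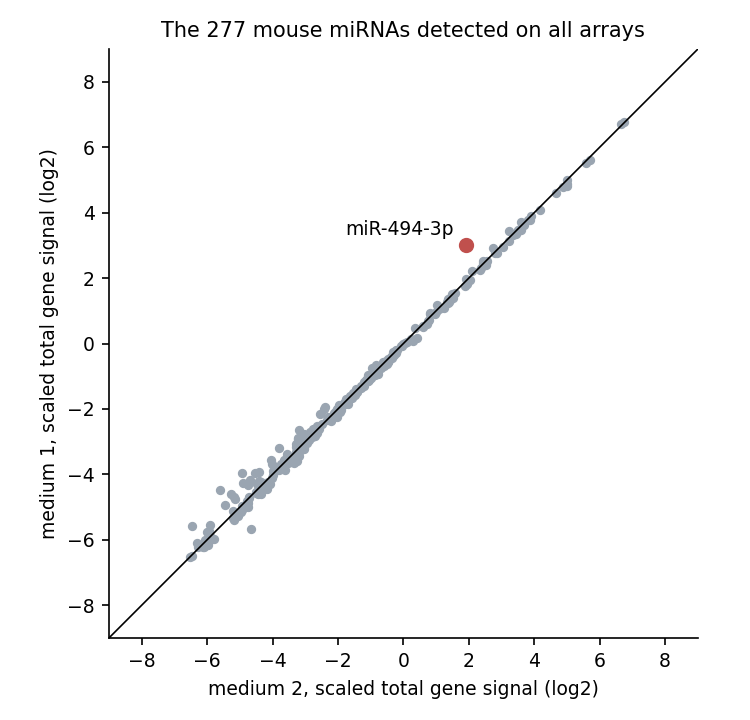
The log2 scaled total gene signal in medium replicate 1 is plotted against that in medium replicate 2 for the 277 mouse miRNAs detected on all arrays, with the line of equal values. miR-494-3p, at 3.002 and 1.92, lies above the line among miRNAs of similar brightness, whereas dimmer miRNAs scatter more widely.

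Medium replicate 1 as a whole lay within the range of the other arrays in some properties and outside it in others. Saturated spots did not occur, and outlier spots made up 5.66% of its spots and 5.20% to 6.28% of the others. It had the most detected mouse miRNAs, 317 against 292 to 301 on the other arrays. The median signal of undetected member probes was also the highest, −0.30 against −0.62 to −0.38. Their median error was the lowest, 1.46 against 1.53 to 1.79 for probes of 20 spots. Whether these properties bear on miR-494-3p was not tested. Of 8 miRNAs listed as markers of myeloid and dendritic cells, 7 were detected on all arrays, among them miR-223-3p, miR-142-3p, miR-155-5p and miR-21-5p. Their summed scaled level ran from 126.98 to 145.5 under flagellin, against 135 and 133 in medium. Most of this sum was miR-21-5p, with total gene signals from 21574 to 34155, while the next brightest, miR-223-3p, had 2499 to 3464. The sum therefore says little about the other markers of the list. All 5 neural markers, among them miR-124-3p and miR-9-5p, and the liver marker miR-122-5p were undetected throughout. Of the 3 muscle markers, miR-1a-3p and miR-133a-3p were undetected and miR-206-3p was detected on all arrays, with total gene signals between 14.8 and 19.1. Of the 5 epithelial markers, 4 were undetected and miR-200c-3p was detected in flagellin replicate 1 (5.98) and medium replicate 1 (5.60). Of the 3 erythroid markers, miR-451 was detected in flagellin replicates 1 and 2 (5.29 and 16.98), and miR-144-3p and miR-144-5p on no array. Of the 8 stromal markers, miR-10b-5p was detected on all arrays and 4 on none, and the list summed to 0.053 to 0.257 under flagellin, against 0.073 and 0.049 in medium. Among the 2 endothelial markers, miR-126-3p was detected on all arrays, with a sum of 0.027 to 0.099 with flagellin and 0.044 and 0.020 with medium. The highest stromal, endothelial and erythroid sums belonged to flagellin replicate 2, where miR-494-3p was lowest on the scaled scale, and their part in the result was not tested. All 5 arrays lay on 1 slide, with both medium arrays in column 4 and the flagellin arrays in columns 2 and 3, so treatment and array column cannot be told apart.

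miR-539-5p was measured at the detection limit. The total gene signal read 0.1, 0.1 and 8.31 under flagellin, against 11.7 and 5.11 in medium, which reads as absence in 2 flagellin replicates. Its 4 probes, of 17 to 20 nt and nested in each other, did not show such steps. Their signals lay between 2.06 and 3.11 on all 5 arrays and their ratios to error between 2.52 and 3.898, on both sides of the limit of 3. The probes that passed numbered 0, 0 and 3 under flagellin and 4 and 2 in medium, and the total gene signal followed that number. The limit also differed by array. For undetected member probes of 10 spots, the median error was 0.81, 0.89 and 0.77 under flagellin and 0.73 and 0.79 in medium. Summed with no detection rule, the 4 probes gave 9.66, 9.99 and 10.4 with flagellin and 11.7 and 9.67 with medium, or 10.01 ± 0.36 (SD, n = 3) against 10.69 ± 1.45 (SD, n = 2). These sums overlapped, and an exact two-sided permutation test gave p = 0.6 before and p = 1 after scaling. From the total gene signals, limma gave a log2 difference of −0.71 (standard error 0.67, adjusted p = 0.859). This value was −0.21 without medium replicate 1 and −1.35 without flagellin replicate 3 (limma adjusted p = 0.996 and 0.224), −2.93 with a floor 10 times lower and −4.12 with the authors' values. From the probes, after background correction by normexp and quantile normalization, the difference was −0.01, and from the processed spot signals it was 0.05, of opposite sign. Both probes of miR-539-3p, the opposite arm, were below 0 on all arrays.

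The 3 undetected members described next were picked for their highest ratio on any array, so the group with the high reading had a part in the choice, and their values are given as a description with no test. miR-376c-3p, the closest to the limit, belongs to the miR-376 family, which is known for adenosine-to-inosine editing. No array passed the limit. Its 19-nt probe read −0.20, 0.50 and 0.02 with flagellin and 2.12 and 2.02 with medium, with a mean error of 0.81 per array. All 4 nested probes were higher in both medium replicates than in all flagellin replicates. Summed, they read −1.72, 0.48 and 0.45 under flagellin and 5.83 and 6.53 in medium, and the groups did not overlap before or after scaling. The same order was frequent among probes of undetected miRNAs. Of the 2046 probes of mouse miRNAs detected on no array, 503 (24.6%) had a signal in each medium replicate that exceeded those of all 3 flagellin replicates. Among the 244 probes of undetected members this share was 54 probes, 22.1%, and among the 1802 other probes 449, 24.9%, while the opposite order was found for 7 and 47 probes. After scaling, the shares were 23.4% and 23.7%. The probes of undetected members thus did not exceed those of other undetected miRNAs in this respect. These shares count single probes and differences of any size. How often all probes of a miRNA kept this order was not counted. No fold change is given, since both groups lay under the detection limit. The opposite arm, miR-376c-5p, had 4 probes with signals between −0.70 and 0.50.

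**Figure D5:**
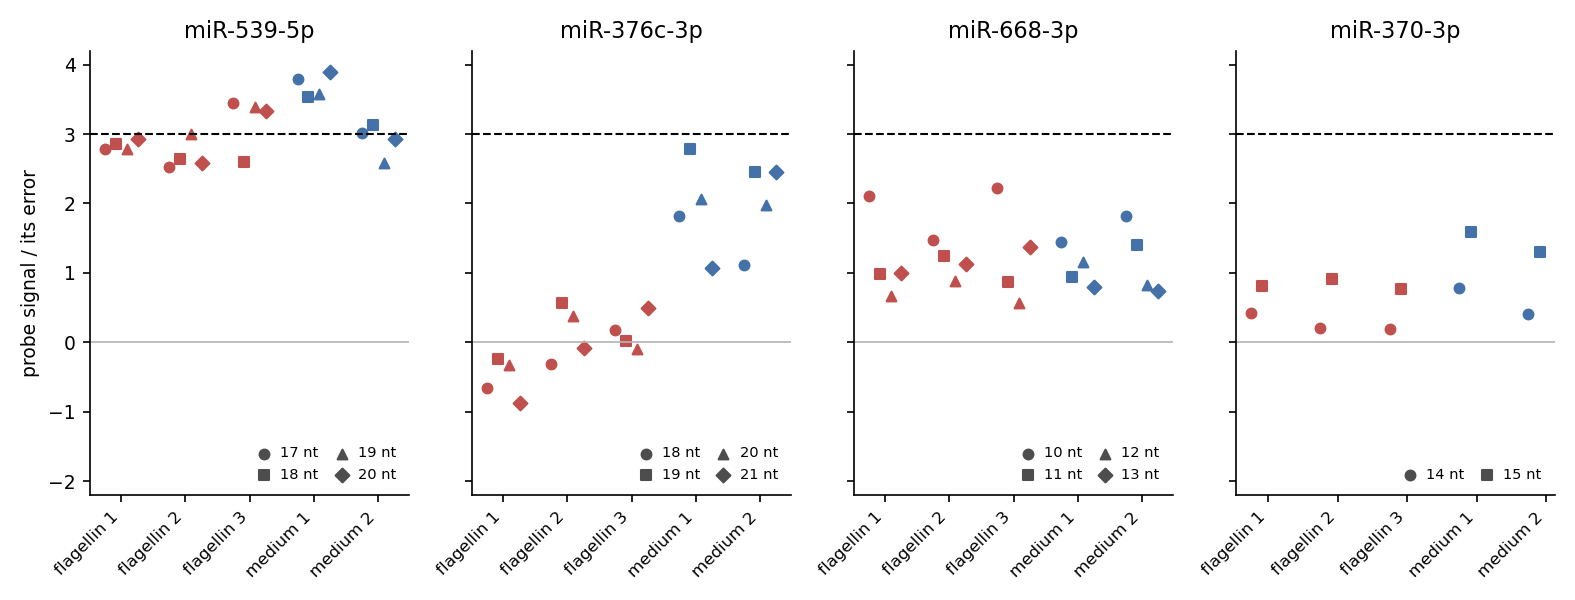
The ratio of probe signal to its error is plotted by array for every probe of miR-539-5p, miR-376c-3p, miR-668-3p and miR-370-3p, with flagellin in red and medium in blue, symbols for probe length, and a dashed line at the detection limit of 3 errors. The miR-539-5p probes lie above the line in medium replicate 1, on both sides of it in flagellin replicate 3 and medium replicate 2, and just under it in flagellin replicates 1 and 2, and those of miR-376c-3p are near 0 with flagellin and between 1.07 and 2.78 with medium.

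The next members by ratio were miR-668-3p and miR-370-3p. The 4 probes of miR-668-3p, of only 10 to 13 nt, summed to 3.92, 4.26 and 3.91 with flagellin and 3.20 and 3.84 with medium. Both medium sums were below the flagellin sums as deposited, while the groups overlapped after scaling, and its highest ratio, 2.22, came from flagellin replicate 3. The 2 probes of miR-370-3p summed to 2.01, 1.999 and 1.47 with flagellin and 3.51 and 2.71 with medium and did not overlap before or after scaling, its highest ratio coming from medium replicate 1. Their signals remained at or below 1.59 errors on every array. The opposite arms miR-668-5p and miR-370-5p were below 0 in every probe on every array.

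Across the 307 mouse miRNAs detected on at least 2 arrays, limma's test gave an adjusted p under 0.05 for 2 (0.651%) and an unadjusted p under 0.05 for 18 (5.86%). The tested members were miR-494-3p and miR-539-5p, and neither was among the 2 or the 18. Their median log2 difference was −0.72, against 0.01 over all 307. As a median of 2 values, it does not describe the cluster. The difference of miR-494-3p rested on medium replicate 1, and for miR-539-5p flagellin replicates 1 and 2 were set to the floor. This median was −0.20 without medium replicate 1, and −0.36 and −0.37 from the probe-level values by normexp and from processed signals. The other 93 members did not enter this test, since no array measured them above the detection limit. With no filter on detection, which sets undetected values to the floor, all 95 entered the fit. The 93 undetected members then held the same floor value on every array. Their lack of a difference was thus fixed in advance and gives no information on flagellin. Neither miR-494-3p nor miR-539-5p had an unadjusted or adjusted p under 0.05 in limma's test there.

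The span between the first and last member also held 16 mouse miRNAs whose numbers the choice of members did not include. Of these, 1 was detected on all arrays, 1 on 3 arrays and 14 on none. miR-3070b-3p had total gene signals of 47.3, 47.5 and 37.2 with flagellin and 63.1 and 41.8 with medium, with overlap and a log2 difference of −0.21 (standard error 0.14, limma adjusted p = 0.859). miR-3070a-3p was listed at 0.1, 0.1 and 5.99 with flagellin and at 11.3 and 5.22 with medium. Its log2 difference was −0.86 (standard error 0.52, limma adjusted p = 0.859), with flagellin replicates 1 and 2 set to the floor. The highest ratio of its probes to their error was 3.79, close to the limit. It was detected on the same 3 arrays as miR-539-5p. These 3 arrays had the lowest median errors of undetected member probes of 10 spots, and whether this bears on its detection was not tested. miR-431-5p and miR-431-3p, which lie next to miR-433 in the Rtl1 antisense stretch, were undetected.

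Of 27 miRNAs from other imprinted genes, 3 (11.1%) were detected on at least 1 array, against 29.3% of all mouse miRNAs. The other 24 were undetected on all arrays, including both arms of miR-675 from H19 and of miR-335 from Mest. Most of the 24 were of the miR-344 family, so the share depends on including that family. miR-296-5p, from the Gnas locus, was detected on all arrays with total gene signals of 56.1, 56.3 and 49.1 with flagellin and 55.0 and 53.3 with medium, and its log2 difference was 0.02 (standard error 0.12, limma adjusted p = 0.990). From Igf2, miR-483-3p was detected on 4 arrays, with 5.53, 6.59 and 5.96 with flagellin and 5.29 and 0.1 with medium. Its log2 difference was 0.62 (standard error 0.26, limma adjusted p = 0.859), with medium replicate 2 set to the floor. miR-483-5p was detected on 3, with 0.1, 3.41 and 0.1 with flagellin and 3.52 and 3.06 with medium (log2 difference −0.04, standard error 0.07, limma adjusted p = 0.891). All its flagellin values were set to the floor of −6.37 on the log2 scale, and both medium values were −6.33. The small difference and standard error thus reflect the floor. None of the miRNAs tested from this list passed the adjusted or unadjusted threshold.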

How the data were processed

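Total RNA was labelled with Cy3 and hybridized to 1-colour Agilent mouse miRNA arrays, Release 18. The authors extracted intensities with Agilent Feature Extraction (10.7 in the submitters' processing notes), and the deposited intensity files hold spot, probe and total gene signals with detection calls. A further deposited table holds log2 values that the authors obtained with GeneSpring. Each of its columns is the log2 total gene signal minus a constant, between 6.55 and 6.91, with medians between −10.2 and −9.88, so scale, centring and direction are known. Total gene signals were divided by the 75th percentile of each array over 277 always detected mouse miRNAs, between 211 and 293, raised to a common floor of 0.0121, and transformed to log2. miRNAs detected on at least 2 arrays were tested with limma 3.58.1 in R 4.3.3 (empirical Bayes, Benjamini-Hochberg adjustment, no covariates, 3 residual degrees of freedom), and the script was tested on simulated data. For single miRNAs, an exact permutation test used all 10 ways to split 5 arrays into 3 and 2. Python 3.11.15, numpy 2.4.6, pandas 2.3.3 and matplotlib 3.10.9 were used otherwise.

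Members and lists were chosen with earlier results of these data known. The members named are those detected on at least 1 array, the 3 undetected ones with the highest ratio of signal to error, and their opposite arms. Other names stand for a stretch of the domain or a list. Probe positions are those of the deposited files (mm9). RefSeq positions are in GRCm38.p6. The number of arrays limits the precision. The labels do not say whether replicate numbers pair the arrays, and the main fit treated them as unpaired. Deviations from the group means correlated across 307 miRNAs with r = 0.047 and 0.0073 in the 2 pairs. Deviations of the 2 medium arrays are equal and opposite, so these correlations are not independent and cannot exclude pairing. Alternatives covered scaling, floor, filter, level, test, blocks, the detection threshold and leaving out each array.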

Additional observations from a re-analysis of the deposited data

How the results depend on the processing

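No cluster miRNA had an adjusted p under 0.05 under any of 18 alternatives. The count over all mouse miRNAs, 2, was 4 with the floor divided by 10 and with the authors' values, 1 with only miRNAs detected on all 5 arrays, with no filter and with array column as a random block, and 0 without scaling, with quantile normalization, with the percentile taken over every mouse miRNA, with array row as a block, and with normexp or processed probe signals. The methods' t-test gave 2, and 14 unadjusted, none of them a member. Leaving out single arrays gave 0 to 0, where the unadjusted count in limma was 4 to 58. The medium array left alone in such a fit was taken to vary like the flagellin arrays. With a replicate block the count was 0 with 39 unadjusted, and miR-494-3p was −0.86 and miR-539-5p −1.28. Before adjustment, limma called 18 of 307 miRNAs at 0.05 in the main fit, none of them a member. With the replicate block, 39 of 307 were called, and miR-539-5p was the only member. Without flagellin replicate 3, 58 of 307 were called, again with miR-539-5p as the only member. With only miRNAs detected on all 5 arrays, 16 of 277 were called, among them miR-494-3p. The fit without medium replicate 2 left 1 medium array, so only its difference for miR-494-3p, −1.30, is given. The median difference of the tested members, −0.72, was −1.83 with the lower floor, −2.42 with the authors' values, 0 with no filter, and −1.27 to −0.20 with arrays left out. The median with no filter is that of undetected members set to the floor. The difference of miR-494-3p stayed below 0, between −1.30 and −0.20. For miR-539-5p it reversed to 0.048 with processed probe signals. With a limit of 2 errors, 4 members were detected on any array and 2 on all, and with 4 errors 1 was detected, and these counts were 2 and 1 whichever array was left out. The cause of these shifts was not tested.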
